A study of Mus musculus with 40 samples.

Results

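The genes described here were 38 genes of the cell cycle, chosen by name from textbook roles in DNA replication, in the cyclin machinery and in mitosis, and all 38 were among the 55270 genes of the deposited table. RNA had been sequenced from fat of C57BL/6J mice, an inbred strain, in 40 libraries. There were 8 groups of 5 libraries: normal, High-fat diet, normal+drug and High-fat diet+drug, each in fat labelled subcutaneous and in fat labelled visceral. Beta-carotene is the compound named in the series design, which also gives the epididymis as the site of the visceral fat but no dose, duration, age or allele. Whether every library had its own mouse is not stated in the labels, so the tests below measure the spread between libraries, and each library was whole tissue, where fewer cells of a type and less RNA per cell cannot be told apart. High-fat diet is written HFD below, and libraries are named by the number in their titles.

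A cell that commits to division loads MCM helicase rings onto its DNA in G1, copies the DNA in S phase with the PCNA sliding clamp and a supply of nucleotides, and then enters mitosis under cyclin B and CDK1. Aurora and Polo kinases, the spindle checkpoint and kinesin motors then part the chromosomes, and the anaphase-promoting complex ends mitosis. Most of these transcripts are scarce in resting cells, so in a tissue made largely of resting fat cells they come mostly from whichever minority of cells is dividing. In fat of obese mice such cells include macrophages, progenitors and endothelial cells, and lymphoid tissue holds dividing lymphocytes. Cd68, which encodes a lysosomal glycoprotein of macrophages, and Cd79a, which encodes a part of the B cell receptor, were used as the marker of each of these compartments.

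Several libraries stood apart, and the depot labels ran against depot markers. Upk3b, a gene of the mesothelium that covers visceral fat, ranged from 6.94 to 219 TPM (a level corrected for transcript length and scaled to a fixed total) in fat labelled subcutaneous and from 0 to 0.646 TPM in fat labelled visceral. Shox2, a homeobox gene of mouse inguinal fat, ranged from 0.2604 to 1.495 TPM in the first and from 5.35 to 23.4 TPM in the second. The titles of all 20 libraries labelled subcutaneous end in e or ewat and those of all 20 labelled visceral end in i. Whether the tissue labels were exchanged was not tested, so every statement on a depot below holds for the label and not for the anatomical site. Among libraries labelled subcutaneous, the summed level of 10 testis germ cell genes was 4926 TPM in normal library 96 and 2846 TPM in HFD library 82, and at most 150.8 TPM in the other 18. The sum of 12 epididymis genes was over 500 TPM in normal+drug libraries 5, 9 and 11 and HFD+drug libraries 26 and 27. Cd68 stood at 2806 and 3498 TPM in HFD libraries 22 and 50. Among libraries labelled visceral, Cd79a was between 131.7 and 546 TPM in 10 and between 1.75 and 18.5 TPM in the other 10. Those rich in Cd79a were 3 normal, 3 normal+drug, 1 HFD and 3 HFD+drug libraries.

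The 38 transcripts spanned a wide range of levels. Pcna, the clamp that holds DNA polymerase to its template, lay between 90.4 and 312 TPM over the 40 libraries, and Mcm7, a subunit of the replicative helicase, between 21.7 and 67.2 TPM. Cenpe, a kinesin of the kinetochore, lay between 0.0484 and 1.51 TPM. In each depot label 35 of the 38 reached 1 TPM in at least 5 libraries and were tested. Bub1, Cenpe and Cenpf, all of the kinetochore, did not, and they were tested only across the 40 libraries of both labels, where all 38 passed. In the GENCODE annotation of GRCm38, exons of 5 of the 38 overlapped exons of a gene on the other strand over more than 10% of their bases: Kif20a with Cdc23, Ube2c with Tnnc2, Ccne2 with Ints8, Ccna2 with Exosc9 and Prc1 with Rccd1. The labels do not say that reads were counted by strand, so the values of these 5 are less certain.

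**Figure D1:**
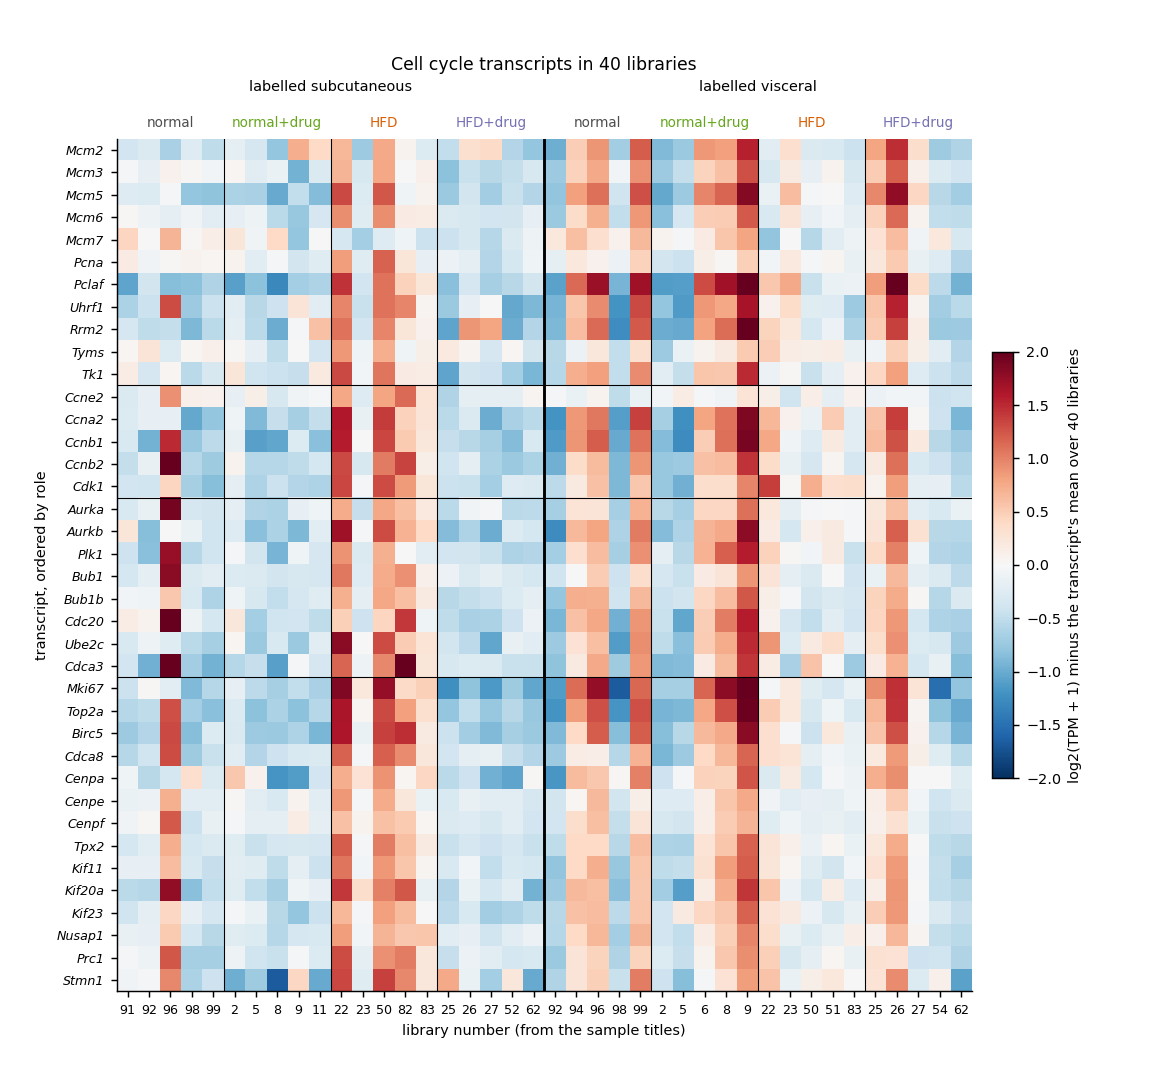
Level of the 38 transcripts (rows, grouped by role) in the 40 libraries (columns, named by title number and grouped by diet, drug and depot label), as log2(TPM + 1) minus the transcript's own mean over all libraries, with colours that end at 2 and -2. Columns rather than single genes change colour together. HFD libraries 22 and 50 labelled subcutaneous and most of the Cd79a-rich libraries labelled visceral are red in most rows. Among the latter, HFD library 23 and HFD+drug library 27 have the lowest sums of the 38, 351.2 and 308.8 TPM, against at least 420.3 TPM in the others. Normal library 96 and HFD library 82 labelled subcutaneous, rich in testis transcripts, also have high sums (536.8 and 480.4 TPM). Pcna is the largest single part of the sum in every library.

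Short motifs of cell cycle promoters were counted in these genes. RefSeq promoter sequence (GRCm38.p6, 250 bases before to 50 after the start) was available for 32 of the 38. The CHR, a site used by the DREAM and MMB-FOXM1 complexes at genes of late cell cycle (searched as TTTGAA or TTCGAA), was present in 19 of the 32 promoters, or 59.4%, against 21.7% of 27025 genes. A CCAAT box (CCAAT) was present in 28 of 32, or 87.5%, against 41.1%. An E2F site (TTCCCGC or TTGGCGC) was present in 9 of 32, or 28.1%, against 7.8%. Birc5, Nusap1, Tyms and Tk1 held none of the 3. Both strands were searched, and these shares are descriptions with no test, since the motifs and the examples below were picked after hits had been counted. Of 21 genes of G2 and mitosis, 17 held a CHR and 3 an E2F site, and of 11 genes of replication and nucleotide supply 2 held a CHR and 6 an E2F site. The 4 sequences below are shown because they span these classes, from a mitotic cyclin to a replication helicase. All motif matches are in capitals on the strand of the gene.
Ccnb2 promoter, chr9:70421505-70421804, minus strand: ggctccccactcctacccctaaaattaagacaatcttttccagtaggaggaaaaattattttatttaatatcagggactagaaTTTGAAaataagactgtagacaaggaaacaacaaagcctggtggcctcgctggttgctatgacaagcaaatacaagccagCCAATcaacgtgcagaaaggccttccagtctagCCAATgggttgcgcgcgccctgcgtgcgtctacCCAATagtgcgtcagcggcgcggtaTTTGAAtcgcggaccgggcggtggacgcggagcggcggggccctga
Cdk1 promoter, chr10:69352863-69353162, minus strand: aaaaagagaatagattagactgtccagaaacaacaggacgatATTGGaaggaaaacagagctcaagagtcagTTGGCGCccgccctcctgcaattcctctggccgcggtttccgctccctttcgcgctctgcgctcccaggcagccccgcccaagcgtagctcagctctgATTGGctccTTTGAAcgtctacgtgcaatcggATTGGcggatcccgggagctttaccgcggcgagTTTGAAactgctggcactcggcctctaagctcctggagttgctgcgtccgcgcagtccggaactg
Mki67 promoter, chr7:135716330-135716629, minus strand: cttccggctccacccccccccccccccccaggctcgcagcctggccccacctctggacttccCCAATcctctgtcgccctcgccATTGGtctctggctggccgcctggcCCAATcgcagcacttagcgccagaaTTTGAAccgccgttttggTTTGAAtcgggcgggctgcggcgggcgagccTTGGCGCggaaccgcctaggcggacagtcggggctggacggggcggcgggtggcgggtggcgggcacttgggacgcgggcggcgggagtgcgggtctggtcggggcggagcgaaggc
Mcm3 promoter, chr1:20820263-20820562, minus strand: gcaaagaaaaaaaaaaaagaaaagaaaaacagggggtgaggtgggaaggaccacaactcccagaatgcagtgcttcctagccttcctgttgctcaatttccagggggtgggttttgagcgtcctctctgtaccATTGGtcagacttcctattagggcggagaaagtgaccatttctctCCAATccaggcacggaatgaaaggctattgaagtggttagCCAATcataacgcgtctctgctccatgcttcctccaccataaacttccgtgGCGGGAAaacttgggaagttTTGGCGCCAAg
The Ccnb2 promoter held 2 CHR and 3 CCAAT matches and no E2F match. The promoters of Cdk1 and Mki67 each held 2 CHR, 3 CCAAT and 1 E2F match. The Mcm3 promoter held no CHR match, 3 CCAAT matches and 3 E2F matches, of which a pair overlap on opposite strands in the run TTGGCGCCAA.

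Under HFD in fat labelled subcutaneous, 6 of the 35 transcripts tested rose and none fell. They were Mki67, a protein that coats mitotic chromosomes and is the usual marker of dividing cells, Pclaf, a PCNA-binding factor, Cdk1, the kinase that drives mitosis, its partner Ccna2, the ubiquitin-conjugating enzyme Ube2c of mitotic exit, and Aurkb, the kinase of the chromosomal passenger complex. Of all 17649 genes tested, 3.75% rose at the same threshold (adjusted p under 0.05, limma across all genes with Benjamini-Hochberg adjustment). The median difference of the 35 on the log2(TPM + 1) scale was 0.70, and over all genes it was -0.02. Mki67 stood at 2.68, 4.002, 3.28, 1.68 and 2.32 TPM in normal libraries 91, 92, 96, 98 and 99 and at 16.8, 4.71, 15.8, 5.47 and 5.88 TPM in HFD libraries 22, 23, 50, 82 and 83. Every HFD library lay above every normal library, and HFD libraries 22 and 50 lay far above the other 3. The difference was 1.35 ± 0.28 (SE, adjusted p = 0.01). The groups did not overlap, HFD above normal, for 3 of the 35 transcripts (Mki67, Ccna2 and Ube2c), against 6.72% of all genes.

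Top2a, the topoisomerase that untangles replicated DNA, had 1 high normal library. It stood at 2.31, 2.44, 10.98, 2.07 and 1.76 TPM in the normal libraries and at 14.3, 4.05, 11.3, 7.69 and 5.12 TPM in the HFD libraries. The third normal value is library 96, which carried the testis germ cell transcripts, and every HFD library lay above the other 4 normal ones. Its difference was 1.09 ± 0.34 (SE, adjusted p = 0.0713) and did not pass. Ccnb1, the B-type cyclin that activates CDK1, stood at 2.55, 1.27, 11.3, 1.58 and 2.04 TPM in normal and 11.98, 3.37, 10, 5.29 and 4.09 TPM in HFD libraries, with library 96 again highest among the normal (0.94 ± 0.39 SE, adjusted p = 0.174). Cdk1 stood at 1.44, 1.43, 3.29, 1.01 and 0.766 TPM and 7.07, 2.15, 6.85, 4.73 and 2.77 TPM in the same order, and its difference was 1.12 ± 0.26 (SE, adjusted p = 0.0183). In library 96 Cdca3, a trigger of mitotic entry, reached 68.6 TPM and Cdc20, an activator of the anaphase-promoting complex, 36.3 TPM, against at most 5.29 and 7.95 TPM in the other normal libraries. The part of germ cell transcripts in the diet difference was not tested beyond leaving out libraries 96 and 82, after which 11 transcripts rose.

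Of the 11 genes of replication and nucleotide supply Pclaf alone passed. Mcm2, another helicase subunit, stood at 3.95, 4.29, 3.099, 4.38 and 3.53 TPM in normal and 9.19, 2.88, 9.82, 5.79 and 4.34 TPM in HFD libraries, which overlapped (0.51 ± 0.31 SE, adjusted p = 0.377). Pcna stood at 153, 130.4, 139, 143 and 139.9 TPM and 245, 116, 312, 163 and 122 TPM, with only HFD libraries 22, 50 and 82 above the normal range. Stmn1, the microtubule destabilizer stathmin, stood at 23.1, 23.9, 48.1, 15.3 and 17.9 TPM and 62.95, 20.4, 63.9, 48.1 and 28.6 TPM. Neither Pcna (0.33 ± 0.21 SE, adjusted p = 0.397) nor Stmn1 (0.77 ± 0.42 SE, adjusted p = 0.314) passed. Mcm7 went the other way, with 51.7, 38.5, 61.9, 38.9 and 42.3 TPM in normal and 30.3, 23.6, 31.8, 35.99 and 28.3 TPM in HFD libraries, all HFD libraries below all normal ones, but it too did not pass (-0.61 ± 0.19 SE, adjusted p = 0.0644). With quantile normalization it passed as lower (-0.6528, limma, adjusted p = 0.04237).

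The diet difference depended on HFD libraries 22 and 50, both rich in macrophage transcripts. The summed level of 14 macrophage genes ranged from 3582 to 5638 TPM in normal and from 4301 to 15610 TPM in HFD libraries. None of the 14 was at 0 in all libraries of any group, and 2 of the 14 rose under HFD, where 3.75% of all genes rose. Of 11 lipid-associated macrophage genes 6 rose, with a median difference of 2.03 and sums of 3208 to 3605 TPM in normal and 4475 to 9158 TPM in HFD libraries, which did not overlap. Without libraries 22 and 50 none of 33 transcripts tested rose and the median difference was 0.38, and without either alone, or without normal library 99, 2 rose. Without normal library 98 3 rose, and without normal library 96 or HFD library 23 14 rose. With Cd68 and Cd79a as covariates none passed and the median was 0.32. The difference of Mki67 was then 0.77 without the pair (adjusted p = 0.0809) and 0.63 with the covariates (adjusted p = 0.186). The part of macrophage number in the diet difference was not tested apart from these fits.

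**Figure D2:**
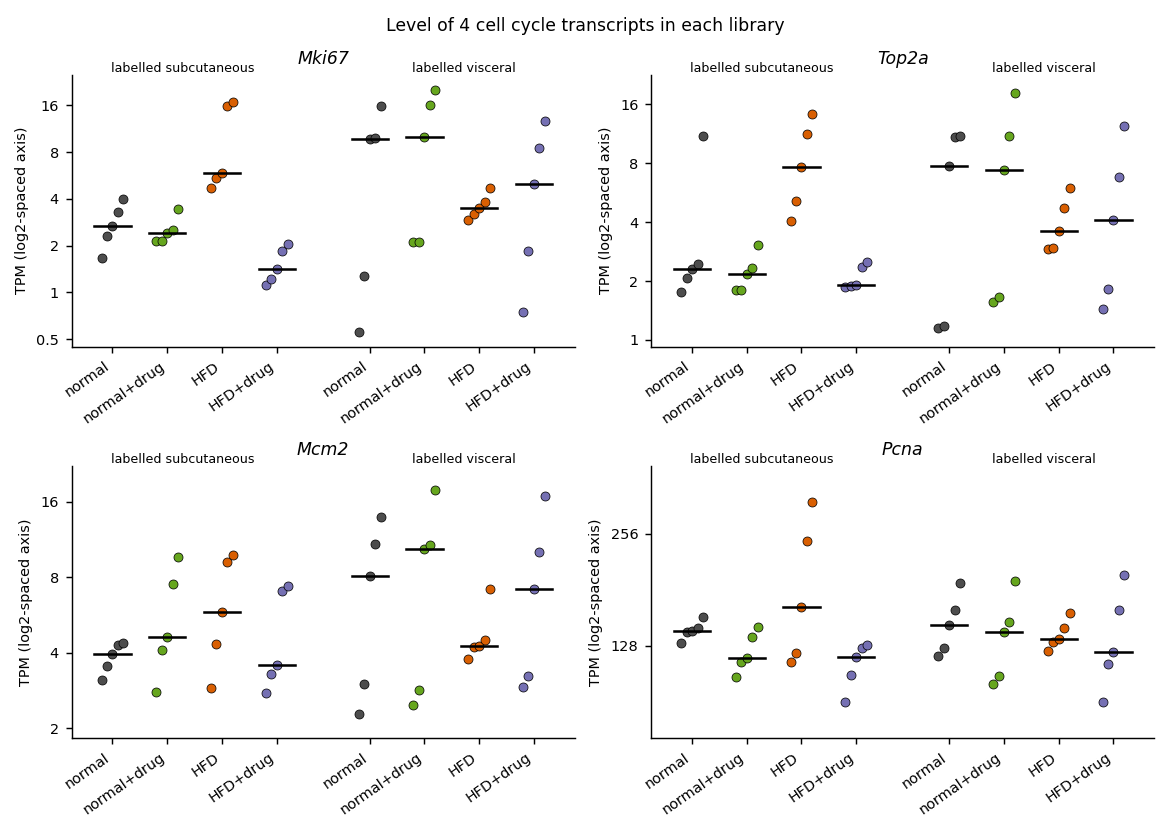
Level of Mki67, Top2a, Mcm2 and Pcna in TPM (log2-spaced axes) in each library (points) of the 8 groups, with the group median as a bar. HFD libraries labelled subcutaneous reach 16.8 TPM of Mki67 and HFD+drug libraries at most 2.03 TPM, while Mki67 in libraries labelled visceral runs from 0.56 to 20.2 TPM.

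With the drug under HFD in fat labelled subcutaneous, 25 of the 35 transcripts fell and none rose. The median difference was -0.998, against -0.17 over all genes, a distance of -0.825. Of all 17649 genes 16.6% fell at the same threshold. Another scaling of the libraries kept the direction and lowered the count, to 16 with quantile normalization and 14 with equal library medians. All 5 drug libraries lay below all 5 HFD libraries for 18 of the 35, against 12.7% of all genes. This comparison and the diet comparison share the 5 HFD libraries, so their opposite directions are not independent.

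Among genes of chromosomes, spindle and cytokinesis 11 of 12 tested fell, with Stmn1 the exception. Mki67 stood at 1.11, 1.83, 1.22, 2.03 and 1.41 TPM in HFD+drug libraries 25, 26, 27, 52 and 62, all below the lowest HFD library at 4.71 TPM. Its group mean was 9.73 ± 6.01 TPM in HFD and 1.52 ± 0.396 TPM in HFD+drug (SD, n = 5 each). The difference of -1.92 ± 0.28 (SE, adjusted p = 0.00153) was farther from 0 than that of any other member in this comparison. Top2a stood at 1.87, 2.49, 1.89, 2.36 and 1.91 TPM in the drug libraries, below every HFD library, and fell by 1.496 ± 0.34 (adjusted p = 0.00832). Birc5, the survivin subunit of the chromosomal passenger complex, differed by -1.58 ± 0.38, Tpx2, an activator of Aurora A on spindles, by -0.998 ± 0.23 (SE, adjusted p = 0.00902), and Kif23, a kinesin of cytokinesis, by -0.94 ± 0.20 (SE, adjusted p = 0.00653). Stmn1 stood at 41.9, 22.1, 14.8, 28.7 and 11.6 TPM, overlapping the HFD libraries (-0.89 ± 0.42 SE, adjusted p = 0.143).

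Of the cyclins and Cdk1, 4 of 5 fell. Ccnb1 stood at 2.16, 1.99, 1.75, 1.397 and 2.55 TPM with the drug, below all HFD libraries (-1.2999 ± 0.39 SE, adjusted p = 0.0289), and Cdk1 at 1.36, 1.34, 0.987, 1.65 and 1.597 TPM, likewise below (-1.17 ± 0.26 SE, adjusted p = 0.00702). Ccna2, the cyclin of S phase and G2, differed by -1.31 ± 0.29 (SE, adjusted p = 0.00687) and Ccne2, a cyclin of the entry into S phase, by -0.76 ± 0.24. Ccnb2 did not pass (-1.22 ± 0.45 SE, adjusted p = 0.0625). Of the mitotic kinases and the genes of checkpoint and mitotic exit, 3 of 7 tested fell. They were Aurkb (-1.43 ± 0.28 SE, adjusted p = 0.0047), Ube2c (-1.24 ± 0.28 SE, adjusted p = 0.00832) and Bub1b, which encodes the checkpoint protein BUBR1 (-0.802 ± 0.21). Aurka, Plk1, Cdc20 and Cdca3 had differences between -1.27 and -0.703 and did not pass.

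Of the genes of replication and nucleotide supply, 7 of 11 fell. Tk1, the thymidine kinase of S phase, differed by -1.22 ± 0.25 (SE, adjusted p = 0.00573). Pcna stood at 126, 119, 90.4, 106 and 129 TPM with the drug and overlapped the HFD libraries, but passed (-0.64 ± 0.21 SE, adjusted p = 0.0401). Mcm3, Mcm5 and Mcm6 fell by 0.77, 1.02 and 0.69. Mcm2 stood at 3.57, 7.05, 7.37, 3.28 and 2.75 TPM and did not pass (-0.33 ± 0.31 SE, adjusted p = 0.489). Its high values belong to libraries 26 and 27, which carried 5365 and 12420 TPM of epididymis transcripts, and Rrm2, the small subunit of ribonucleotide reductase, was likewise 19.1 and 17.8 TPM there against at most 6.2 TPM in the other 3. In normal+drug libraries 9 and 11, where the epididymis sum was 46600 and 4684 TPM, Mcm2 was 9.62 and 7.51 TPM and Rrm2 9.57 and 15.2 TPM. In normal+drug library 5, with an epididymis sum of 860.3 TPM, they were 4.09 and 6.43 TPM, and in library 2, outside the epididymis-rich set, 4.61 and 8.53 TPM. Without the 5 epididymis-rich libraries 16 members fell and the Mcm2 difference was -0.72 (adjusted p = 0.076). The part of epididymis RNA in these values was not tested further.

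The drug difference rested partly on the same macrophage-rich pair. The macrophage sum ranged from 4301 to 15610 TPM in HFD and from 2212 to 4151 TPM in HFD+drug libraries, and 13 of the 14 macrophage genes fell. Of all genes, 16.6% fell and 2.63% rose in this comparison. Of 11 lipid-associated macrophage genes 8 fell (sum 4475 to 9158 TPM in HFD and 1804 to 4128 TPM in HFD+drug). Of 8 endothelial genes 2 fell, not far from the share of all genes, with sums that did not overlap (264.2 to 366.1 and 138 to 250.7 TPM). Of 11 progenitor and fibroblast genes 4 fell and 1 rose (sum 1668 to 2371 and 1057 to 1852 TPM). None of these genes was at 0 in all libraries of any group of the label. Their part in the drug difference was not tested. Without HFD libraries 22 and 50, Mki67 alone fell among 33 tested (-1.34, adjusted p = 0.0142) and the median difference was -0.72. Without either alone 13 fell. With Cd68 and Cd79a as covariates none passed and the median was -0.43, with Mki67 at -0.90 (adjusted p = 0.448). Whether the drug acts through macrophages was not tested.

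**Figure D3:**
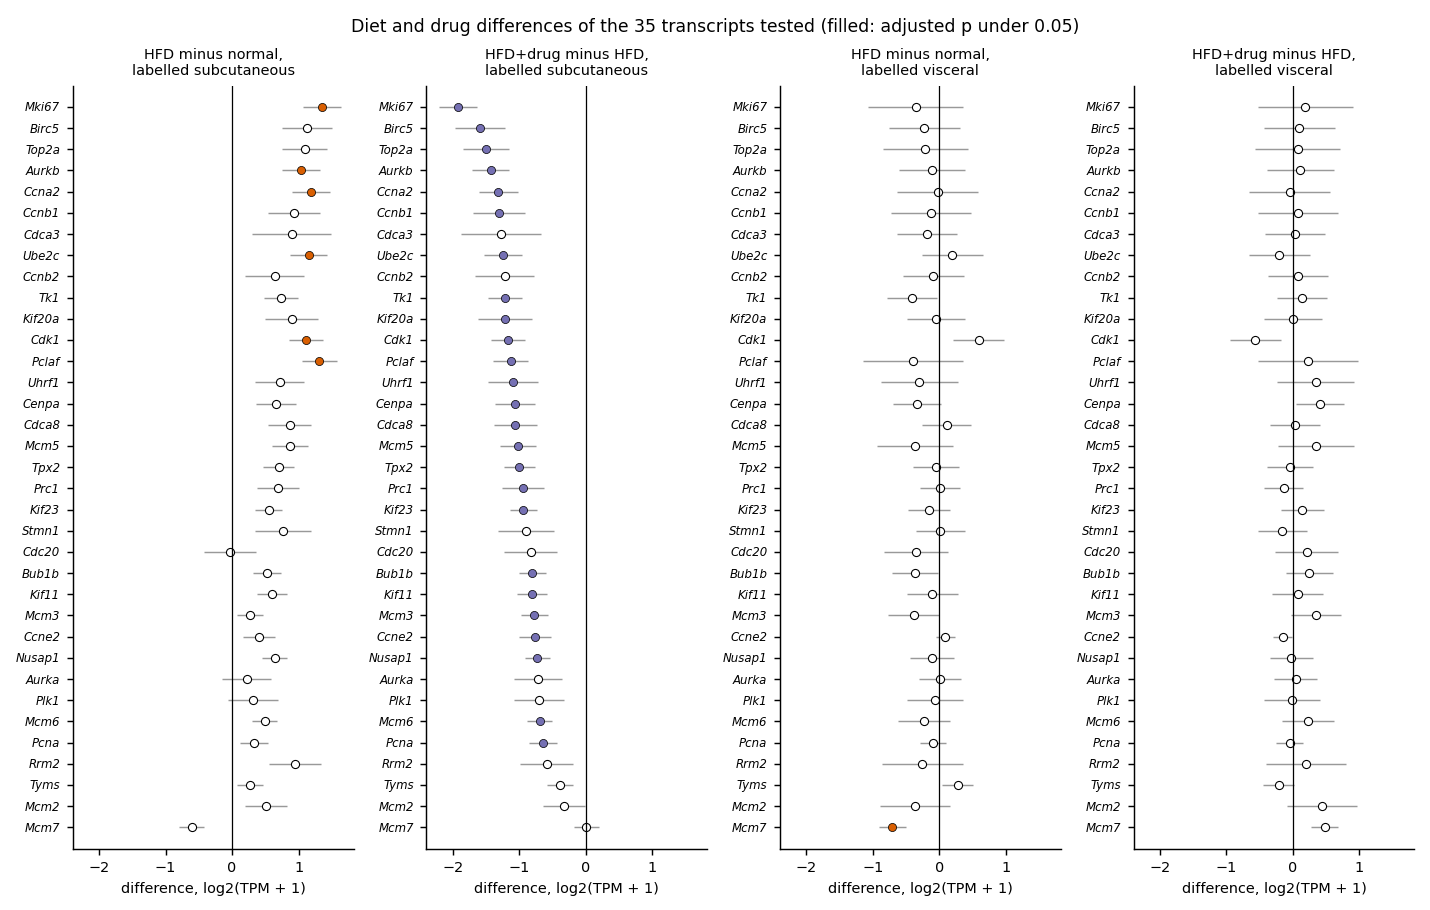
Difference in log2(TPM + 1) (horizontal axes, with the standard error as a bar) of each of the 35 transcripts tested, for HFD minus normal and HFD+drug minus HFD in both depot labels. Filled points passed an adjusted p under 0.05: 6 and 25 in fat labelled subcutaneous, and Mcm7 alone in fat labelled visceral.

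On the normal diet no member passed for the drug in fat labelled subcutaneous, in limma. Of the 35 tested, none had an unadjusted p under 0.05, and their median difference was -0.22, against -0.05 over all genes. Among all genes 0% passed in either direction, and 1105 of 17649 had an unadjusted p under 0.05. Mki67 stood at 3.42, 2.43, 2.13, 2.52 and 2.14 TPM in normal+drug libraries 2, 5, 8, 9 and 11, all within the normal range (-0.08 ± 0.28). Top2a stood at 3.05, 1.79, 2.17, 1.79 and 2.33 TPM, Ccnb1 at 2.93, 1.07, 1.13, 2.6 and 1.45 TPM and Cdk1 at 1.804, 1.08, 1.36, 1.13 and 1.09 TPM in the same libraries. All lay below the third normal library, and 2 values of Ccnb1 lay under the lowest normal one. Mcm2 stood at 4.61, 4.09, 2.78, 9.62 and 7.51 TPM, Pcna at 144, 118, 135, 106 and 116 TPM and Stmn1 at 11.9, 14.5, 6.94, 32.8 and 11.6 TPM, and all 3 overlapped the normal libraries. Whether the drug acted differently under the 2 diets was tested by their interaction, which no member and 0% of all genes passed. At an unadjusted p under 0.05 in limma lay 12 of the 35 members and 2728 of all 17649 genes. The interaction was -1.84 ± 0.40 (SE, adjusted p = 0.184) for Mki67 and -0.75 in the median, and a dependence of the drug difference on diet was not shown.

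In fat labelled visceral the groups differed little and the libraries differed much. Of 35 transcripts tested, Mcm7 fell under HFD (-0.71 ± 0.20 SE, adjusted p = 0.0459), with 44.5, 58.95, 48.4, 40.7 and 60.4 TPM in normal libraries 92, 94, 96, 98 and 99 and 21.7, 38.5, 25.6, 33.1 and 35.6 TPM in HFD libraries 22, 23, 50, 51 and 83, and no other passed. Of all 17094 genes 1.39% fell. All HFD libraries lay below all normal libraries for Mcm7. No member passed for the drug under HFD (2.16% of all genes passing), for the drug on the normal diet (0%) or for their interaction (0.00585%), all in limma. In the same order, 1, 0 and 0 of the 35 members had an unadjusted p under 0.05, against 2978, 590 and 863 of all 17094 genes.

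Single libraries show where the spread lay. Mki67 stood at 1.27, 9.73, 15.8, 0.5599 and 9.91 TPM in the normal libraries, at 2.12, 2.11, 10.1, 16.1 and 20.2 TPM in normal+drug libraries 2, 5, 6, 8 and 9, at 3.83, 4.68, 3.17, 2.92 and 3.49 TPM in HFD and at 8.46, 12.6, 4.98, 0.746 and 1.86 TPM in HFD+drug libraries 25, 26, 27, 54 and 62. Normal libraries 94, 96 and 99, normal+drug 6, 8 and 9, and HFD+drug 25, 26 and 27 are high, and they are the Cd79a-rich libraries, together with HFD library 23. Top2a stood at 1.16, 7.75, 10.9, 1.18 and 11.01 TPM in normal, 1.57, 1.65, 7.41, 11.02 and 18.2 TPM in normal+drug, 5.95, 4.702, 2.92, 3.62 and 2.97 TPM in HFD and 6.77, 12.4, 4.097, 1.81 and 1.44 TPM in HFD+drug libraries. The Cd79a-rich libraries again held the highest values in each group except HFD, where library 22, poor in Cd79a, was higher than library 23.

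Mcm2, of the helicase, followed the same split. It stood at 2.29, 8.09, 10.8, 2.99 and 13.96 TPM in normal and 2.48, 2.83, 10.7, 10.4 and 17.8 TPM in normal+drug libraries. It stood at 4.505, 7.16, 4.27, 4.21 and 3.78 TPM in HFD and 10.1, 16.8, 7.21, 2.92 and 3.23 TPM in HFD+drug libraries. For Mcm2, Mki67, Cenpf, Mcm3, Mcm5 and Mcm6 all 10 Cd79a-rich libraries lay above all 10 others, and the median was higher in the rich libraries for 37 of 38 members. The matching shares of all genes were not computed. Of all 17092 genes tested, 32.5% rose with Cd79a in this label, so neither count is shown to be particular to the members. Over the rich libraries Mki67 ranged from 4.68 to 20.2 TPM with a median of 9.98, and over the others from 0.5599 to 3.83 TPM with a median of 2.11.

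Ccnb1, Cdk1, Pcna and Stmn1 separated less sharply. Ccnb1 stood at 0.997, 7.07, 9.06, 1.17 and 8.23 TPM in normal, 1.39, 0.819, 5.17, 8.34 and 15.3 TPM in normal+drug, 6.48, 3.18, 2.66, 3.94 and 2.76 TPM in HFD and 5.69, 9.55, 4.02, 1.97 and 1.63 TPM in HFD+drug libraries. Cdk1 stood at 1.21, 2.6, 3.798, 0.711 and 3.62, then 0.881, 0.638, 3.08, 3.07 and 5.28, then 7.29, 2.24, 4.298, 3.02 and 3.08, then 2.34, 4.67, 1.81, 1.85 and 1.18 TPM in the same order of groups, and its highest value belonged to HFD library 22, which was poor in Cd79a. Pcna stood at 119.9, 159, 146, 126 and 189 TPM in normal, 106, 101, 148, 139 and 192 TPM in normal+drug, 131, 156, 133, 143 and 124 TPM in HFD and 159.9, 198, 123, 114 and 90.4 TPM in HFD+drug libraries. Stmn1 stood at 15.7, 29.1, 34.1, 17.6 and 50.4 TPM, 17.9, 13, 23.6, 30.1 and 44.2 TPM, 36.7, 21.97, 26.6, 28.2 and 24.4 TPM and 29.6, 47.8, 19.8, 25.98 and 11.1 TPM in these groups, which overlapped throughout.

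The HFD group labelled visceral held 1 Cd79a-rich library and each other group 3, so the lymphocyte split was uneven across the diet and drug comparisons. Without the 10 rich libraries no member passed for diet or for drug under HFD among 30 tested, with medians of 0.73 and -0.53. In that remainder Mki67 lay between 2.92 and 3.83 TPM in the 4 HFD libraries and at 1.27 and 0.5599 TPM in 2 normal, 2.12 and 2.11 TPM in 2 normal+drug and 0.746 and 1.86 TPM in 2 HFD+drug libraries. The HFD libraries are thus the highest of the remaining 10, at a size where no test passed. The sum of 9 skeletal muscle genes also varied between these libraries, from 57.9 to 19720 TPM over the label, with 5471 and 15690 TPM in normal libraries 92 and 98, 6231 and 10170 TPM in normal+drug 2 and 5 and 19720 TPM in HFD+drug 62. Its part was not tested.

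Whether the cell cycle transcripts followed Cd68 or Cd79a was asked within treatment groups, by a fit that held the 4 treatment means and a slope on the log2 level of each marker. A slope is the change in log2(TPM + 1) per doubling of the marker. In fat labelled subcutaneous 9 of 35 transcripts rose with Cd68 and none fell, against 5.34% of all 17647 genes rising. They were 5 of 11 replication genes (Pcna, Mcm3, Mcm5, Mcm6 and Tk1) together with Ube2c, Ccna2, Mki67 and Aurkb. The slope was 0.43 ± 0.05 (SE, adjusted p = 7.14e-05) for Pcna, 0.52 ± 0.10 (SE, adjusted p = 0.00324) for Mki67 and 0.56 ± 0.09 (SE, adjusted p = 0.000698) for Ccna2. For Mcm3 it was 0.36 ± 0.06, for Mcm6 0.35 ± 0.06, for Tk1 0.44 ± 0.10, for Ube2c 0.55 ± 0.09 and for Aurkb 0.47 ± 0.11. Top2a, Ccnb1 and Cdk1 had slopes of 0.397, 0.41 and 0.38 that did not pass, and Mcm2 and Stmn1 of 0.22 and 0.1996. No member passed for Cd79a (2 at an unadjusted p under 0.05, limma), and the median slope of the members was -0.01. Of all genes 0.0567% passed, and the share with an unadjusted p under 0.05 is not given here.

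These Cd68 slopes rested on HFD libraries 22 and 50, in which Cd68 was 2806 and 3498 TPM, against at most 696 TPM elsewhere in the label. Without them no member passed and the median slope fell from 0.28 to 0.10, with Mki67 at 0.18 (adjusted p = 0.679) and Pcna at 0.31 (adjusted p = 0.206). Across all 20 libraries, with treatment left in, Mki67 correlated with Cd68 at r = 0.914 and rho = 0.771 (permutation p = 1e-05, the smallest that 100000 permutations can give, and 0.00016, adjusted over 84 values to 0.00042 and 0.00149). Without libraries 22 and 50 r was 0.709. For Pcna r was 0.925 and rho 0.791 (permutation p = 1e-05 and 3e-05, adjusted 0.00042 and 0.000504), and 0.708 without the pair. For Stmn1 r was 0.537 and rho 0.356 (permutation p = 0.013 and 0.127, adjusted 0.0475 and 0.278) and 0.102 without the pair, and for Mcm2 0.345 and 0.144 (permutation p = 0.132 and 0.543, adjusted 0.278 and 0.724) and -0.365. Those 2 relations rest on these libraries. The r with Cd79a lay between -0.219 and 0.37 over the 38 members. Cd79a itself stayed between 2.41 and 24.7 TPM in this label.

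**Figure D4:**
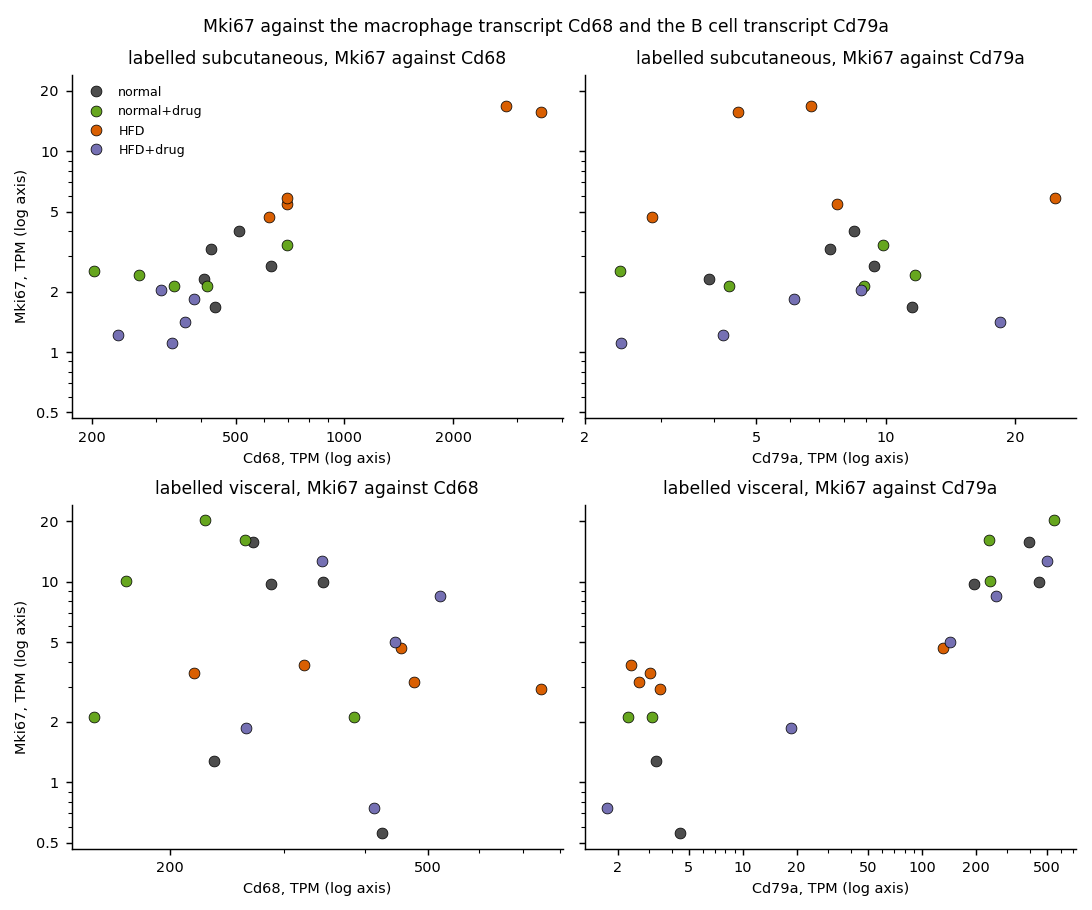
Mki67 against Cd68 (left) and Cd79a (right) in TPM on log axes, for the 20 libraries labelled subcutaneous (top) and the 20 labelled visceral (bottom), coloured by treatment. In the upper left panel HFD libraries 22 and 50 stand apart at 2806 and 3498 TPM of Cd68, and in the lower right panel the libraries form 2 clusters on either side of 100 TPM of Cd79a.

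In fat labelled visceral members passed for Cd79a and not for Cd68. With Cd79a 34 of the 35 transcripts rose, all but Ccne2, and none fell, against 32.5% of all 17092 genes rising. The median slope was 0.18, against 0.02 over all genes. With quantile normalization 31 rose and with equal library medians 28, and Ccne2 fell in both (-0.0448, adjusted p = 0.0165, and -0.0394, adjusted p = 0.0319). The slope was 0.36 ± 0.03 (SE, adjusted p = 4.19e-07) for Mki67, 0.27 ± 0.02 (SE, adjusted p = 5.79e-08) for Mcm2, 0.29 ± 0.03 (SE, adjusted p = 2.00e-07) for Mcm5 and 0.31 ± 0.04 (SE, adjusted p = 7.00e-06) for Top2a. Pclaf (0.37 ± 0.04), Rrm2 (0.29 ± 0.04), Uhrf1, a reader of hemimethylated DNA (0.28 ± 0.03), Mcm6 (0.19 ± 0.02) and Mcm3 (0.18 ± 0.02) followed. The other members given for every library also rose: Ccnb1 (0.27 ± 0.04, adjusted p = 0.000108), Cdk1 (0.14 ± 0.04, adjusted p = 0.00839), Stmn1 (0.13 ± 0.04, adjusted p = 0.0131) and Pcna (0.08 ± 0.02, adjusted p = 0.000409). No member passed for Cd68 (none at an unadjusted p under 0.05, limma), and the median slope of the members was -0.02. Of all genes 1.22% passed, and the share with an unadjusted p under 0.05 is not given here. Cd68 itself stayed between 152.7 and 745.8 TPM in this label.

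The Cd79a slopes joined 2 clusters of libraries, so the relation was also read within each. The r of all genes with either marker was not computed within the clusters. No share of all genes therefore stands beside the counts of positive members here. Within the 10 rich libraries all 38 members correlated positively with Cd79a, with a median r of 0.881. There Mcm2 had r = 0.955 and rho = 0.964 (permutation p = 3e-05 and 5e-05, adjusted 0.000504 and 0.0007), and 0.937 without the 2 libraries farthest from the median. Top2a had r = 0.909 and rho = 0.794 (permutation p = 3e-04 and 0.0085, adjusted 0.0021 and 0.034) and 0.859 without them, and Mki67 r = 0.79 and rho = 0.697 (permutation p = 0.00727 and 0.0304, adjusted 0.0305 and 0.0945) and 0.722 without them. Within the 10 poor libraries the median r was -0.268 and 4 of 38 were positive, and without the rich libraries no member passed for the slope and the median slope was -0.06. Cd79a ranged there only from 1.75 to 18.5 TPM. The rich libraries were rich in T cell transcripts too: all 11 B cell genes tested beside Cd79a and all 12 T and NK cell genes rose with Cd79a, the T and NK sum ranging from 340 to 1145 TPM in them, so B and T cells cannot be told apart as a correlate. With Cd68 the r of Mki67 within the rich libraries was -0.655 and rho -0.794 (permutation p = 0.0403 and 0.00902, adjusted 0.121 and 0.0344), and 0 of 38 members were positive (median r -0.51). Within the poor libraries 32 of 38 members had a positive r with Cd68, with a median of 0.303 and a range from -0.214 to 0.847, and Mki67 had r = -0.029 and rho = -0.115 (permutation p = 0.935 and 0.758, adjusted 0.968 and 0.884).

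**Figure D5:**
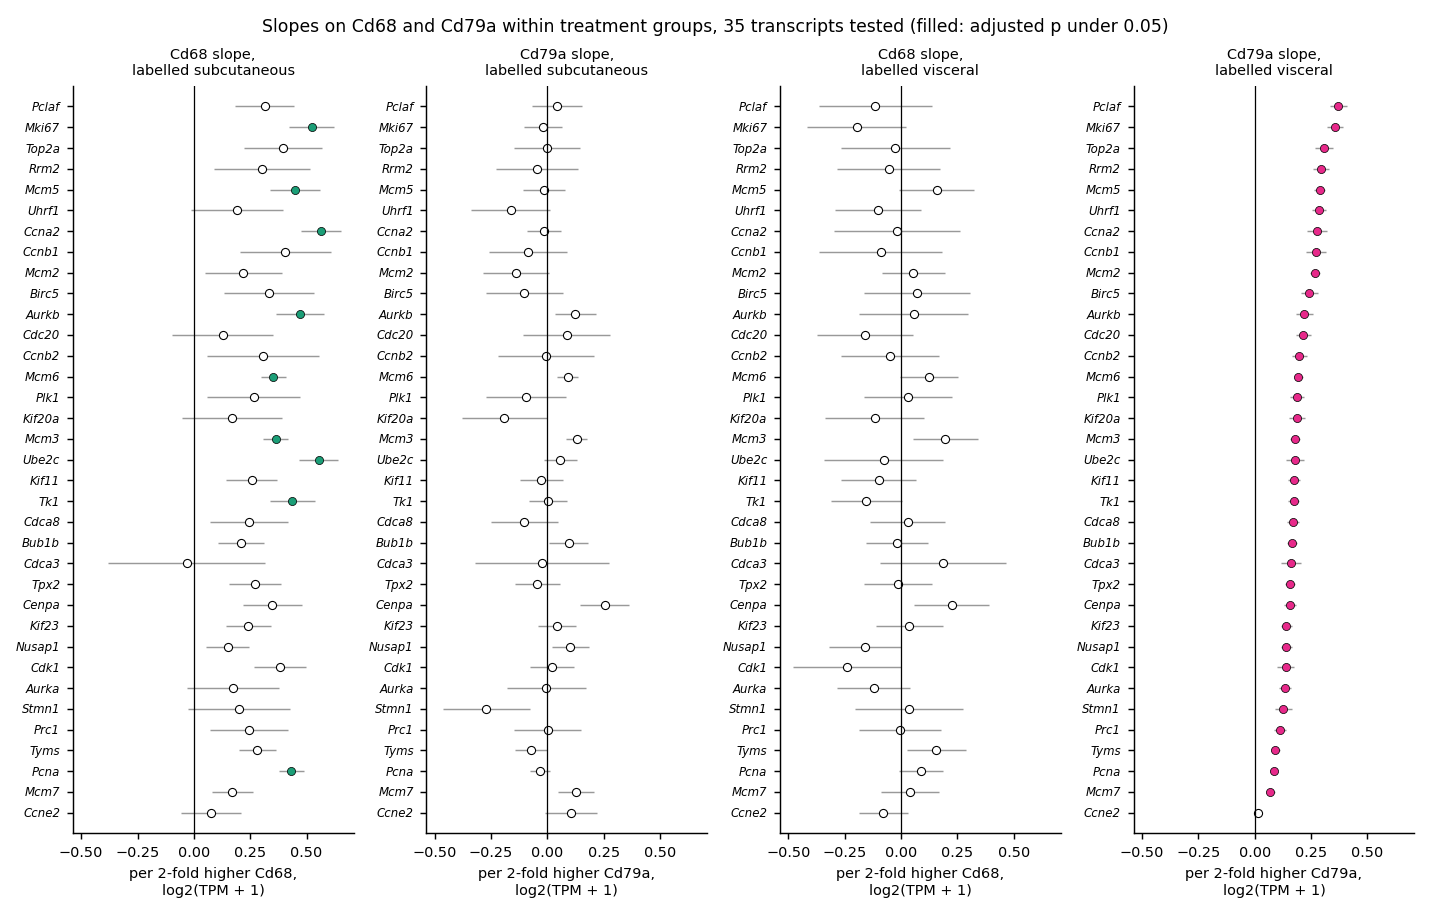
Slope of each of the 35 transcripts on Cd68 and on Cd79a (change in log2(TPM + 1) per 2-fold higher marker, horizontal axes, standard error as a bar) within treatment groups, in both depot labels. Filled points passed an adjusted p under 0.05: 9 for Cd68 in fat labelled subcutaneous and 34 for Cd79a in fat labelled visceral, with none in the middle panels.

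Despite this contrast, no member's slope was shown to differ between the depot labels. For Cd68 none of 38 passed in limma, and 0.0252% of all 19857 genes did. Of the 38, 6 had an unadjusted p under 0.05, and the median difference of all 38, visceral minus subcutaneous, was -0.29. For Cd79a none of the 38 passed, and 3.97% of all genes did. Of the 38, 15 had an unadjusted p under 0.05, and the median difference of all 38 was 0.18. The shares of all genes at that unadjusted threshold are not given for the slopes. Neither count is thus shown to be particular to the members. Under single alternatives 1 to 4 members passed for Cd79a, Mcm2 in 4 of them. The smallest adjusted p for Cd79a was that of Mki67, at 0.38 ± 0.11 (SE, adjusted p = 0.0551), with Mcm2 at 0.41 ± 0.12 (SE, adjusted p = 0.0569). For Cd68 the difference was -0.72 ± 0.23 (SE, adjusted p = 0.406) for Mki67 and -0.35 ± 0.11 (SE, adjusted p = 0.392) for Pcna. The diet and drug differences were compared between labels in the same way. None of the 38 passed for diet (median -0.75) or for drug under HFD (median 1.04), and 0.00504% and 0% of all genes did. At an unadjusted p under 0.05 lay 6 and 17 of the 38 members, and 1702 and 3401 of all 19859 genes. Mki67 was at -1.71 ± 0.78 (SE, adjusted p = 0.561) and 2.11 ± 0.78 (SE, adjusted p = 0.169).

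Averaged over the 4 treatments, 3 of 38 members were higher in fat labelled visceral and none lower, against 13.2% of all 19859 genes higher. They were Pclaf (0.81 ± 0.29 SE, adjusted p = 0.026), Mcm5 (0.63 ± 0.23 SE, adjusted p = 0.0286) and Mcm7 (0.25 ± 0.10 SE, adjusted p = 0.0441). Mki67 did not pass (0.48 ± 0.28 SE, adjusted p = 0.179). Without the libraries rich in epididymis or lymphocyte transcripts the direction turned: none was higher, Mki67, Mcm6 and Cdc20 were lower (-0.63, -0.38 and -0.72) and the median went from 0.21 to -0.34. Without HFD+drug library 26 or normal+drug library 9 labelled visceral 1 was higher, without normal library 92 6 were, and with quantile normalization and equal medians 9 and 7.

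Other genes of the cell cycle were read in 4 further lists. Among 24 tested genes of mitosis beyond the 38, 4 rose under HFD and 13 fell with the drug under HFD in fat labelled subcutaneous. Racgap1, a regulator of cytokinesis, differed by 0.91 ± 0.24 (SE, adjusted p = 0.0345) and -0.92 ± 0.24 (SE, adjusted p = 0.015), Ncaph, a condensin subunit, by 0.58 ± 0.16 (SE, adjusted p = 0.0375) and -0.83 ± 0.16 (SE, adjusted p = 0.00424), Anln, the cleavage furrow protein anillin, by 0.5996 ± 0.17 under HFD, and the chromokinesin Kif22 and the spindle protein Ckap2 by -1.01 ± 0.22 and -0.97 ± 0.22 with the drug. Among 19 genes of licensing and DNA synthesis none rose under HFD (4 at an unadjusted p under 0.05, limma) and 2 fell with the drug, the licensing factor Cdt1 (-1.02 ± 0.28 SE, adjusted p = 0.0195) and the helicase cofactor Cdc45 (-0.54 ± 0.18 SE, adjusted p = 0.0408). That count is no larger a share than the 16.6% of all genes that fell. For HFD, 3726 of all 17649 genes had an unadjusted p under 0.05 in limma.

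Among 16 G1 genes 3 rose under HFD and 7 fell with the drug. The G1 cyclin Ccne1 differed by 1.36 ± 0.21 (SE, adjusted p = 0.00109) and -1.01 ± 0.21 (SE, adjusted p = 0.00523) and the transcription factor E2f1 by 1.47 ± 0.25 (SE, adjusted p = 0.00282) and -1.24 ± 0.25 (SE, adjusted p = 0.00529), with Ccnd2 at 1.06 ± 0.27 under HFD and E2f3 at -0.61 ± 0.14 with the drug. Ccnd1, cyclin D1, did not pass in either (-0.21 ± 0.24 and -0.03 ± 0.24). Among 14 inhibitors and quiescence genes Ccng1 rose and Btg1 fell under HFD (0.96 ± 0.18 and -0.76 ± 0.21), where 3.75% of all genes rose and 1.69% fell. With the drug 4 of the 14 fell, against 16.6% of all genes, among them Btg2 (-0.93 ± 0.22 SE, adjusted p = 0.00972), Mdm2 (-0.65 ± 0.17) and Ccng1 (-0.62 ± 0.18). Cdkn1a, the p21 inhibitor of CDKs, stood at 126, 139, 97.98, 76.1 and 66.03 TPM in HFD and 72.5, 75.8, 57.6, 92.2 and 149.8 TPM in HFD+drug libraries, which overlapped (-0.19 ± 0.38 SE, adjusted p = 0.759).

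In fat labelled visceral, E2f1 rose under HFD (0.81 ± 0.17 SE, adjusted p = 0.0102) and fell with the drug under HFD (-0.72 ± 0.17 SE, adjusted p = 0.0414), as did Wee1, the kinase that holds CDK1 inactive (0.73 ± 0.17 SE, adjusted p = 0.0214, and -0.69 ± 0.17 SE, adjusted p = 0.0473). Anln rose under HFD there (0.68 ± 0.16 SE, adjusted p = 0.0226). Of all genes 3.91% rose under HFD and 2.09% fell with the drug in that label. With Cd79a, 14 of 19 G1 genes rose, led by E2f2 (0.33 ± 0.03 SE, adjusted p = 4.43e-08), Rbl1 (0.14 ± 0.02) and E2f8 (0.16 ± 0.02), and so did 17 of 21 licensing and synthesis genes, led by Cdt1 (0.297 ± 0.02 SE, adjusted p = 4.51e-08), Mcm4 (0.16 ± 0.02) and Rrm1 (0.11 ± 0.01). Of 30 further mitotic genes 25 rose, led by Lmnb1 (0.23 ± 0.02 SE, adjusted p = 1.55e-07), Hmgb2 (0.27 ± 0.03) and Smc4 (0.32 ± 0.03). Of 14 genes on the inhibitor and quiescence list 5 rose and 3 fell, where 32.5% of all genes rose and 11.1% fell, with Trp53 at 0.15 ± 0.02 (SE, adjusted p = 4.05e-06), Cdkn2d at 0.13 ± 0.02 and Gas1, a growth arrest gene, at -0.103 ± 0.02 (SE, adjusted p = 0.00151). Cdkn1a did not pass (-0.05 ± 0.05 SE, adjusted p = 0.389). For Cd68 in fat labelled subcutaneous, 1 of 19 licensing and synthesis genes rose, Cdt1 (0.58 ± 0.07 SE, adjusted p = 7.14e-05). Of 24 further mitotic genes 1 rose, the phosphatase Cdc25b (0.33 ± 0.06 SE, adjusted p = 0.00245). Of 14 genes on the inhibitor and quiescence list 1 rose, Mdm2 (0.29 ± 0.06 SE, adjusted p = 0.0104), and of 16 G1 genes none. Of all genes 5.34% rose, so these counts are not shown to be particular to the lists. Whether these slopes depend on the libraries with Cd68 over 2000 TPM is not given here.

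Averaged over treatments, Ccnd1 was lower in fat labelled visceral (-0.67 ± 0.14 SE, adjusted p = 0.000237), as were Gas1 (-1.21 ± 0.13 SE, adjusted p = 6.79e-09), Anln (-0.82 ± 0.08 SE, adjusted p = 1.41e-09) and Gins2, a part of the replicative helicase (-0.67 ± 0.10 SE, adjusted p = 6.07e-06). E2f2 (0.997 ± 0.24 SE, adjusted p = 0.00131), Cdkn1b, the p27 inhibitor (0.51 ± 0.09 SE, adjusted p = 2.47e-05), and Cdc25b (0.83 ± 0.17 SE, adjusted p = 0.000209) were higher. Of all genes 23.7% were lower and 13.2% higher. The Cd79a slope of Gas1 (-0.35 ± 0.09 SE, adjusted p = 0.0179), Tob1 (-0.28 ± 0.07 SE, adjusted p = 0.0265) and Orc6 (-0.196 ± 0.06 SE, adjusted p = 0.0456) was lower in fat labelled visceral than in fat labelled subcutaneous, against 2.13% of all genes.

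The genes whose level was most like the mean of the 35 tested members were themselves mostly genes of division. Over the 20 libraries labelled subcutaneous they were Cip2a (r = 0.972), Asf1b, Rab3il1, Prr11, Kif22, Cdca5, Racgap1, Gtse1, Incenp and Ckap2 (r = 0.929), out of 17614 genes. Cd68 ranked 190 in that order with r = 0.823 and Cd79a 11069 with r = 0.046. Over the 20 libraries labelled visceral they were Racgap1 (r = 0.992), Kif22, Fignl1, Dlgap5, Lmnb1, Mad2l1, Hells, Clspn, Sec11c and P2ry10b (r = 0.967), out of 17059. There Cd79a ranked 1636 and Cd68 11796. These r values describe libraries that share treatment and composition, and in fat labelled visceral they span the 2 clusters, so no test goes with them.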

How the data were processed

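Per the submitters' processing notes, the build was GRCm39 and the tools were STAR 2.7.8, FastQC 0.11.9, DESeq2 1.32.0 and featureCounts 2.0.3, with the role of each not given in the sources used here. The deposited table holds TPM for 55270 genes and 40 libraries, scaled by the authors to 998276 per library, so RNA from another tissue in a library lowers every other value in it. Depth per library is not given and TPM keep none. An attempt to recover reads from the steps of low values, with exon lengths of GENCODE M21, left only 25.3 to 30.1% of values under 10 reads within 0.02 of a whole read, so its estimates were set aside and no counting interval was computed. Values were analysed as log2(TPM + 1) in limma 3.58.1 (R 4.3.3) with trended, robust variances, over genes with at least 1 TPM in 5 libraries of the fit. A filter of 10 TPM, used in earlier work on these data, would have kept 5, 14 and 15 members. Differences come from fits of the 4 treatments within a depot label or of all 40 libraries, and slopes from the same fits with log2 Cd68 and Cd79a, which were then left out of the genes tested. Adjustment was over all genes tested, at 0.05. The procedure was tested on simulated data, and other pseudocounts, filters, scalings, covariates and omitted libraries were tried. Correlations used scipy 1.17.1 with 100000 permutations. Members, lists and tests were chosen with earlier results of these data known. The roles into which members were grouped, and the limits of 100 TPM for Cd79a, 2000 TPM for Cd68 and 1000 TPM for the testis list, were set after values had been seen. Named in the text are Mki67, Top2a, Ccnb1, Cdk1, Mcm2, Pcna and Stmn1, up to 6 further members per comparison by adjusted p, up to 3 genes of each other list, Cdkn1a, Ccnd1 and the 10 genes most like the members. Others were picked after their values were seen: Mcm7, the members named by role with the drug, those high in single libraries, Birc5, Cdca3 and Cdc20 among them.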

Additional observations from a re-analysis of the deposited data

Results flagged for a closer look

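Within groups of 5, single libraries stood apart from the other 4 by Dixon's criterion for 9 of the values described, among 80 sets of 5 examined, where chance flags about 1 in 20. Normal library 96 labelled subcutaneous accounted for 5 of them: Top2a at 10.98 TPM against 1.76 to 2.44 in the others, Ccnb1 at 11.31 against 1.27 to 2.55, Cdk1 at 3.292 against 0.766 to 1.44, Stmn1 at 48.12 against 15.3 to 23.9, and the sum of the 38 members at 536.8 against 285.5 to 331 TPM. Testis germ cell transcripts summed to 4926 TPM in that library, and their part in these values was not tested. In HFD library 23 labelled visceral Cd79a was 131.7 TPM against 2.39 to 3.45, and Mcm2 was 7.155 against 3.78 to 4.51. In HFD library 83 labelled subcutaneous Cd79a was 24.71 TPM against 2.87 to 7.69, with Mki67 at 5.88 TPM, in the middle of its group. In normal+drug library 2 labelled subcutaneous the sum of the 38 members was 319.5 TPM against 251 to 267 TPM, with Cd68 at 695 TPM, the highest of its group. Pcna made up 144.1 TPM of that sum and Mki67 3.418 TPM. Among the other cell cycle genes the Cd79a slope differed between the depot labels by a test of the difference itself in limma (visceral minus subcutaneous) for Gas1 at -0.35, Tob1 at -0.28 and Orc6 at -0.196.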

How the results depend on the processing

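Changing the pseudocount to 0.5 or 5 moved no member count by over 1.5 times. For HFD in fat labelled subcutaneous, where 6 members passed, the count was 1 with a filter of 10 TPM, 11 with quantile normalization, 20 with library weights, 11 without the testis-rich libraries, and 0 both without the libraries with Cd68 over 2000 TPM and with Cd68 and Cd79a as covariates. These counts hold calls in either direction, and with quantile normalization Mcm7 passed as lower (-0.6528, limma, adjusted p = 0.04237). For the drug under HFD there, where 25 passed, it was 2 with 10 TPM, 16 with quantile normalization, 14 with equal medians, 16 without the epididymis-rich libraries, 1 without the Cd68-rich pair and 0 with the covariates, where Pcna turned to 0.1964. The 1 call for HFD in fat labelled visceral became 0 with no filter, without the B-rich libraries, with the covariates and in a fit of those 2 groups alone. For the depot label, where 3 passed, 9, 7 and 19 passed with quantile normalization, equal medians and library weights, and without the epididymis- or B-rich libraries the differences of Mki67, Pclaf, Mcm5 and Mcm7 were -0.6288, -0.2346, -0.2071 and -0.0606. For the Cd68 slope in fat labelled subcutaneous, where 9 passed, it was 1 with 10 TPM, 19 with library weights, 17 without the testis-rich libraries, 0 without the Cd68-rich pair and 27 with no treatment terms. For the Cd79a slope in fat labelled visceral, where 34 passed, it was 14 of 14 tested with 10 TPM and 0 without the B-rich libraries, where the slopes of Top2a, Ccnb1, Cdk1, Pcna, Stmn1, Mcm5, Pclaf and Rrm2 were -0.0909, -0.0981, -0.2224, -0.1013, -0.4177, -0.0007, -0.1623 and -0.0395. Of the tests between depot labels, where none passed, library weights gave 4 for diet, 1 for drug, 1 for the Cd68 slope and 4 for the Cd79a slope, and the last was 1 with 10 TPM, quantile normalization, equal medians or without the testis-rich libraries. Leaving out 1 library at a time, the counts ranged from 2 to 14 for HFD and 13 to 28 for the drug in fat labelled subcutaneous (13 without HFD library 22 or 50), from 0 to 1 for HFD in fat labelled visceral, from 1 to 6 for the depot label, from 6 to 12 for the Cd68 slope, from 34 to 34 for the Cd79a slope in fat labelled visceral, from 0 to 5 for the difference in Cd79a slope (5 without HFD library 23 labelled subcutaneous) and from 0 to 0 for the other 10 tests. The causes of these shifts were not tested, beyond fewer genes or libraries where a filter or an omission left fewer. Shares of all genes under these settings are not given, here or above. A shift in a count is thus not shown to be particular to the members. Libraries of the 2 depot labels with the same title number were not strongly alike. The correlations of their deviations ran from -0.071 to 0.093 over 16 shared numbers, and 6 of 16 were highest with their own number. These values cannot tell whether a shared number stands for 1 mouse, since each label has its own admixture of other tissue. With the number as a replicate block 3 members passed for the depot label and 0 in the 4 tests between labels, so no count changed. Depth is not given and was not recovered, so what it limits could not be set.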
